A study of Mus musculus with 14 samples.

Results

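The genes described here are the ribosomal proteins of the cytoplasm and their relatives on a mouse array. They were chosen by name: a gene was a member when its name began with Rpl or Rps followed by a digit, p or x, with the S6 kinases and pseudogenes left out. This gave 81 of the 27962 gene names on the array, carried by 135 of its 41174 probes. Of the members, 30 are proteins of the small subunit, 42 of the large subunit and 3 of the stalk. A further 5 are paralogs, which are copies that diverged from a parent gene (Rpl22l1, Rpl36al, Rpl3l, Rpl7l1 and Rps27l). The remaining 1, Rps19bp1, is named only for the ribosomal protein it binds. The name pattern missed Rpl39l and Rps4l, which the array lists under clone names, and both are described beside their parent genes. It also missed Rpl34 of the large subunit, which is given beside the other parts of the ribosome pathway. No probe was matched to Rpl10l, which is not analysed here.

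The study measured messenger RNA of the whole testis, taken from C57BL/6 mice, on single-colour Agilent arrays of 60-base probes. It compared wild-type mice (WT) with Glis3KO2, the label of mice in which Glis3, a zinc finger transcription factor, was disrupted. Each genotype was sampled at 1 week of age, with 4 samples of each, and at 4 weeks, with 3 of each. For the older mice the series description names 3 weeks in place of the 4 in the labels, which were followed. Neither states how the allele was made or whether animals were pooled or separate, so the p-values measure only the spread between these samples, which may be technical.

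Each ribosome is built from 2 subunits of ribosomal RNA and proteins, most of which are needed in equal amounts, so their genes are transcribed strongly in nearly all cells. The stalk of the large subunit recruits the translation factors. In the testis some parent genes lie on the X chromosome, which is transcriptionally silenced in spermatocytes during meiosis, and several of them have autosomal copies that are transcribed in male germ cells. The X-linked members are Rps4x, Rpl39, Rpl10 and Rpl36a.

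The comparisons below turn on whether a probe reads the X-linked gene or its autosomal relative, so the middle 30 bases of some of the probes concerned are shown, 5′ to 3′, as deposited. Capitals mark the 10 bases that the overlapping Rpl36a probes share within the stretches shown. Positions are those of the whole 60-base probe in the mm7 annotation of the files. The brightest probe stands for its gene.
Rps4x, brightest probe, chrX:97512305-97512364, minus strand: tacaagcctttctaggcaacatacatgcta
Rps4l, its only probe, chr6:148433815-148433874, plus strand: gggacattgcggggaaggggcgtttacgtt
Rpl39l, brightest probe, chr16:9846568-9846627, plus strand: ttcattcagcagttcagtaataaatatgtg
Rpl36a, brightest probe, chrX:129306720-129306779, plus strand: ggccattaagagatgcaagcattttgaact
Rpl36a, other probe, chrX:129307188-129307247, plus strand: acctttcaacccctttgattGCAGTTGTTC
Rpl36a, other probe, chrX:129307208-129307267, plus strand: GCAGTTGTTCgtttgggagggaatacatta
Rpl10, brightest probe, no position in the files: tcatcatctccatccgatccaagttgcaga
Rpl10, other probe, chrX:69659408-69659467, plus strand: caaggaacatgtgattgaggctctgcgaag
The probes that stand for the 7 parent and paralog pairs measured share no run of more than 6 bases with their partner's probe. This compares probes only, and the probes may lie at different places of their transcripts, so it cannot say what a probe binds. Whether a probe also binds the transcript of its partner, or of a pseudogene, was not tested.

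All 81 members were well above background on all 14 arrays, so none was lost to the filter on dim probes. The probes of Rps23, Rps18 and Rps14 were saturated on 4, 1 and 1 of the 14 arrays. Of all non-control spots, 74.3% to 86.6% were well above background on an array. Precision is limited by how few arrays there are. At 1 week the Glis3 probe passed background on all 4 WT arrays, at a log2 signal of -5.05 to -4.71, and on 0 of 4 Glis3KO2 arrays, at -9.25 to -7.30. At 4 weeks it passed on 0 of 3 arrays of either group, and nothing given says whether it lies inside the part of Glis3 that was disrupted. Sertoli markers, which define the supporting cells of the testis, were above background in all 4 groups for 7 of 7 genes. Every signal given here is a log2 value from which the array's own 75th percentile was subtracted, so it describes 1 probe between groups and not 1 gene against another.

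At 4 weeks 3 of the 4 X-linked members rose in Glis3KO2, where 437 of 787 other X-linked genes and 35.1% of all genes tested rose. The largest differences of all 81 members were those of Rps4x and Rpl39. Rps4x, a protein of the small subunit, read 4.42, 4.33 and 4.21 on the WT arrays and 6.20, 6.16 and 5.68 on the Glis3KO2 arrays. The groups were far apart, and Glis3KO2 replicate 3 was the lowest of its group. Rps4x was 3.24-fold higher in Glis3KO2, a log2 difference of 1.70 (SE 0.19, limma adjusted p = 0.000682). Rpl39, which lines the exit tunnel of the large subunit, read 3.10, 3.22 and 2.97 in WT and 4.75, 4.68 and 4.18 in Glis3KO2. It was 2.72-fold higher (log2 difference 1.44, SE 0.19, limma adjusted p = 0.00109), again with replicate 3 nearest to WT. Rpl10, one of the last proteins to join the large subunit, read 3.74, 3.71 and 3.57 in WT and 4.79, 4.67 and 4.36 in Glis3KO2. It was 1.91-fold higher (log2 difference 0.94, SE 0.16, limma adjusted p = 0.00244). These 3 genes passed the test in each of the 18 alternatives with a test. Within slide 5, which holds 1 array of each genotype, the differences were 1.36 for Rps4x, 0.96 for Rpl39 and 0.66 for Rpl10, and within slide 4 they were 1.87, 1.68 and 1.08.

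The remaining X-linked member, Rpl36a, gave readings that depended on the probe. Its brightest probe read 5.35, 5.42 and 5.33 in WT at 4 weeks and 5.18, 5.15 and 5.03 in Glis3KO2. The groups did not overlap, but the log2 difference of -0.25 did not pass the test (SE 0.13, limma adjusted p = 0.139). The other Rpl36a probes lie 409 bases or more further along the gene and overlap each other by 40 bases. The probe that starts first of these read 3.19, 3.27 and 3.01 in WT and 4.92, 4.73 and 4.25 in Glis3KO2, a log2 difference of 1.48. Its neighbour gave 1.53. They share sequence and are not independent readings. With the mean of all 3 probes standing for the gene, the difference was 0.92 and Rpl36a passed the test. The other Rpl10 probe, on the X chromosome, gave 1.42 where the probe that stands for the gene gave 0.94. For Rps4x another probe with no position gave 0.57 where the first gave 1.70.

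**Figure D1:**
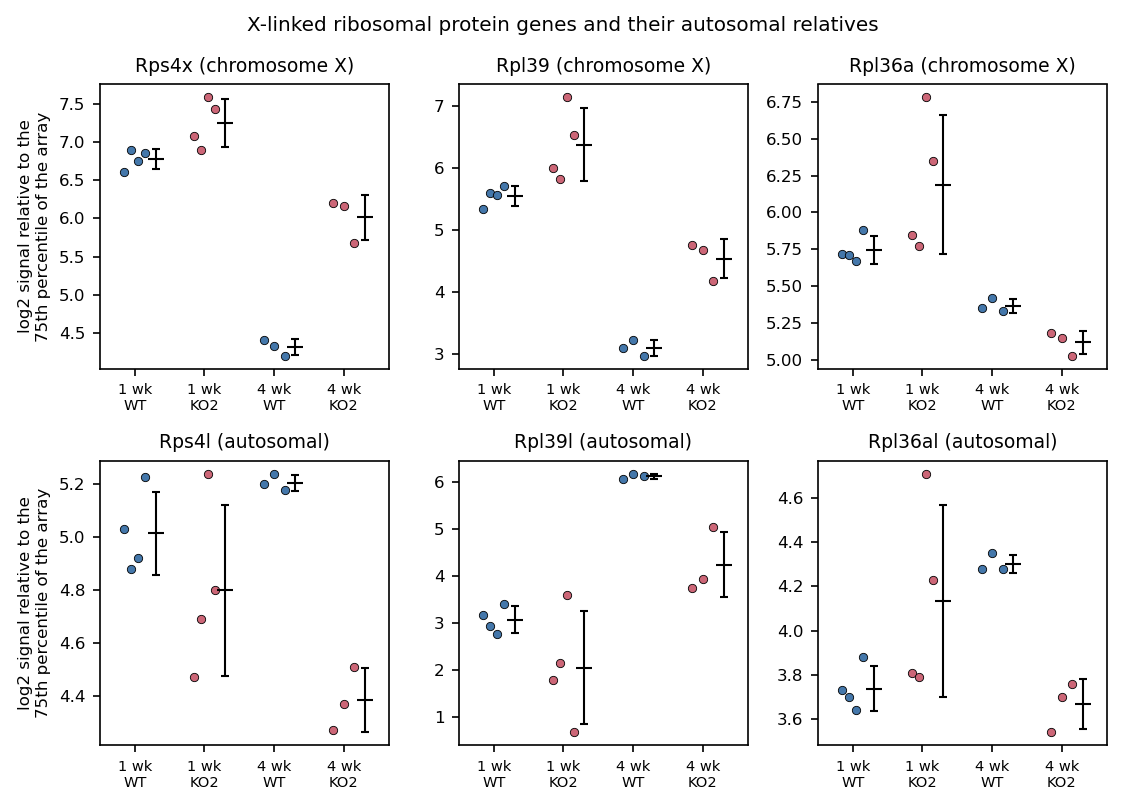
Log2 signal relative to the 75th percentile of the array for 3 X-linked genes (top) and their autosomal relatives (bottom). Points are arrays (blue WT, red Glis3KO2, written KO2), and bars are mean and SD; each panel has its own scale. At 4 weeks Rps4x and Rpl39 lay higher and Rps4l, Rpl39l and Rpl36al lower in Glis3KO2.

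Of the autosomal relatives, 4 fell in Glis3KO2 at 4 weeks, where 34.1% of all genes tested fell. Rpl39l, the copy of Rpl39 on chromosome 16, read 6.06, 6.17 and 6.12 in WT and 3.75, 3.94 and 5.04 in Glis3KO2. It was 3.67-fold lower (log2 difference -1.88, SE 0.34, limma adjusted p = 0.00265), and replicate 3, the nearest of the Glis3KO2 arrays, still lay below all WT arrays. The other Rpl39l probe gave -2.30. Rps4l, a relative of Rps4x on chromosome 6, read 5.20, 5.24 and 5.18 in WT and 4.27, 4.37 and 4.51 in Glis3KO2. It was 1.77-fold lower (log2 difference -0.82, SE 0.14, limma adjusted p = 0.00206). Rpl36al, the relative of Rpl36a on chromosome 12, read 4.28, 4.35 and 4.28 in WT and 3.54, 3.70 and 3.76 in Glis3KO2. It was 1.56-fold lower (log2 difference -0.64, SE 0.14, limma adjusted p = 0.00522). Rpl22l1, the relative of Rpl22, read 4.76, 4.83 and 4.82 in WT and 4.16, 4.12 and 4.18 in Glis3KO2, and was 1.57-fold lower (log2 difference -0.65, SE 0.13, limma adjusted p = 0.00365). Its other probe gave -2.24. Rpl36al and Rpl22l1 kept their sign but lost their calls with quantile normalization, at -0.28 and -0.22. In each of these 4 genes all 3 Glis3KO2 arrays lay below all 3 WT arrays.

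Of the other paralogs 1 rose and 2 were not called. Rpl7l1, a relative of Rpl7 found in precursors of the large subunit, read 0.69, 0.70 and 0.61 in WT and 1.43, 2.0 and 1.61 in Glis3KO2. It was 2.02-fold higher (log2 difference 1.01, SE 0.18, limma adjusted p = 0.00264). The other Rpl7l1 probe gave 0.47. Rps27l, a p53-responsive relative of Rps27, differed by -0.07 (SE 0.14, limma adjusted p = 0.643), and its groups overlapped. Rpl3l, the relative of Rpl3 known from striated muscle, differed by 0.24 (SE 0.27, limma adjusted p = 0.447), and its groups overlapped.

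The difference between paralog and parent on 1 array is the same under any constant scaling of that array, and it was compared over 7 pairs in 3 comparisons. At 4 weeks the paralog minus parent difference was lower in Glis3KO2 by 3.32 (SE 0.59) for Rpl39l and Rpl39 and by 2.52 (SE 0.24) for Rps4l and Rps4x. It was lower by 0.94 (SE 0.13) for Rpl22l1 and Rpl22, by 0.65 (SE 0.17) for Rpl3l and Rpl3, and by 0.39 (SE 0.11) for Rpl36al and Rpl36a. For Rps27l and Rps27 it was lower by 0.19 (SE 0.12). For Rpl7l1 and Rpl7 it was higher by 0.78 (SE 0.18). The groups did not overlap in any pair. Each had a two-sided p of 0.1 by exact permutation, the smallest that 3 arrays against 3 can give, so the design cannot pass 0.05. With quantile normalization the value for Rps27l and Rps27 turned to 0.05 and its groups overlapped. In all pairs at both ages the brightest probe stood for each gene, so the SE leaves out the spread between probes. At 4 weeks other probes gave 1.48 and 1.53 for Rpl36a, not -0.25, and 1.61 for Rpl22, not 0.29. They gave -2.24 for Rpl22l1, not -0.65, 0.57 for Rps4x, not 1.70, and 0.47 for Rpl7l1, not 1.01.

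Over all members, most differences at 4 weeks were not called. 18 of 81 rose and 7 fell in Glis3KO2, which is 30.9%, where 69.2% of the 21338 genes tested were called, 35.1% higher and 34.1% lower. The median log2 difference was 0.12 over the members and 0.03 over all genes tested. Among the brightest 25% of all genes, 74.2% were called and the median was 0.18. The 27 members whose Glis3KO2 arrays all lay above WT and the 19 that all lay below stand against 38.6% and 38.4% of all genes. In bulk samples, fewer cells of a type and less RNA per cell cannot be told apart.

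**Figure D2:**
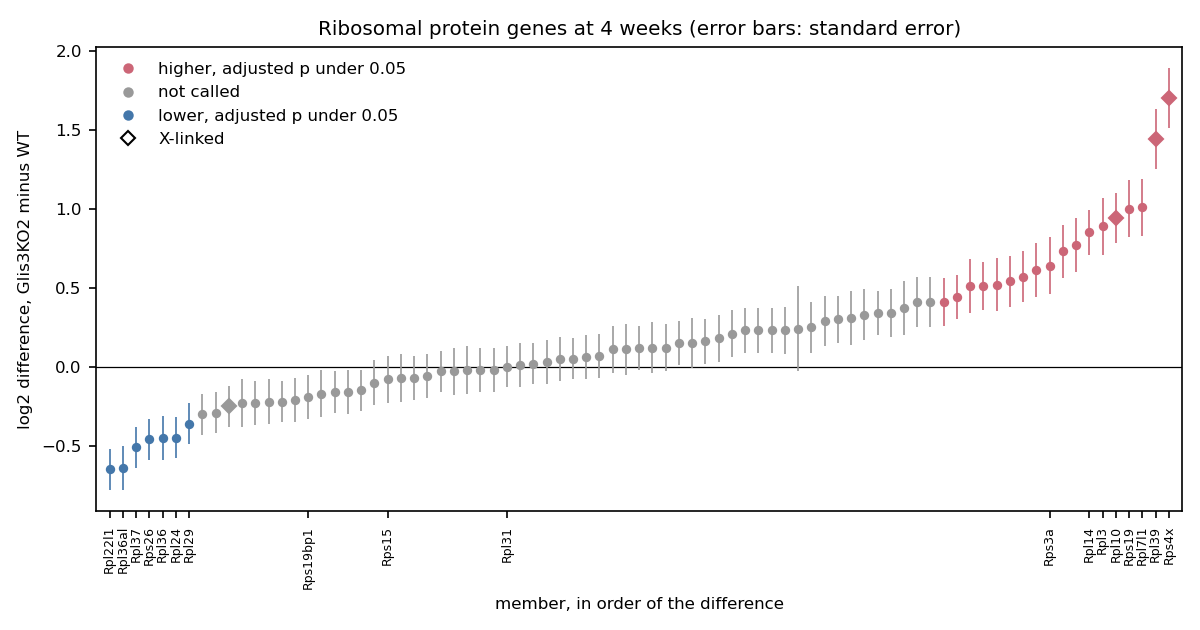
Log2 difference, Glis3KO2 minus WT, at 4 weeks for the 81 members in order, with standard errors; the horizontal axis names some of the members, red and blue mark those with an adjusted p under 0.05, and diamonds mark the X-linked members. The differences ran from -0.65 for Rpl22l1 to 1.70 for Rps4x, and 56 members were not called.

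The members that rose came from both subunits. In the small subunit 7 of 30 rose and 1 fell, with a median of 0.12. Rps19, the protein first linked to Diamond-Blackfan anaemia, read 4.57, 4.76 and 4.53 in WT and 5.84, 5.70 and 5.33 in Glis3KO2 (log2 difference 1.00, SE 0.18, limma adjusted p = 0.00269). Another Rps19 probe above background on all arrays gave 0.41, and with the mean of its probes Rps19 did not pass the test. Others that rose were Rps3 (0.73), Rps3a (0.64), Rps16 (0.51) and Rps2 (0.41), beside Rps4x. In the large subunit 10 of 42 rose and 4 fell, with a median of 0.14. Rpl3, which lies next to the catalytic centre, read 4.49, 4.52 and 4.49 in WT and 5.65, 5.44 and 5.07 in Glis3KO2 (log2 difference 0.89, SE 0.18, limma adjusted p = 0.00432). Rpl14 (0.85), Rpl13a (0.77), Rpl10a (0.61), Rpl4 (0.57), Rpl5 (0.54), Rpl27a (0.51) and Rpl23a (0.44) also rose. All 3 stalk genes missed the threshold, at 0.33 for Rplp2, 0.23 for Rplp1 and -0.02 for Rplp0.

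The members that fell besides the paralogs had small differences. Rpl37, a zinc-binding protein of the large subunit, read 5.25, 5.25 and 5.17 in WT and 4.76, 4.65 and 4.73 in Glis3KO2 (log2 difference -0.51, SE 0.13, limma adjusted p = 0.0111). Rps26, at the exit of the mRNA channel, read 4.42, 4.29 and 4.27 in WT and 3.88, 3.89 and 3.83 in Glis3KO2 (-0.46, SE 0.13, limma adjusted p = 0.018). Rpl24, which takes part in a bridge between the subunits, differed by -0.45, as did Rpl36, and Rpl29 by -0.36. In these genes the groups did not overlap, and in Rpl24 and Rpl36 another probe, whose position overlaps that of the brightest, gave -0.45 and -0.47. Calls were lost without WT replicate 1 (Rpl37, Rps26, Rpl24, Rpl36 and Rpl29), WT replicate 2 or 3 (Rps26, Rpl24, Rpl36 and Rpl29), Glis3KO2 replicate 2 (Rpl36 and Rpl29) or Glis3KO2 replicate 1 (Rpl29), with the differences at -0.49 to -0.34.

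These counts moved with the scaling. With quantile normalization 51 members rose and 0 fell, with a median of 0.44, where 69.8% of all genes were called and their median was 0.04. The lower calls were then lost, with Rpl37 at -0.07 and Rpl36 at -0.02, while Rps4x, Rpl39, Rpl10, Rpl39l and Rps4l kept their calls. Without Glis3KO2 replicate 3, 31 rose and 7 fell, without WT replicate 1, 12 and 2, without WT replicate 2, 10 and 3, without WT replicate 3, 9 and 3, and without Glis3KO2 replicate 2, 11 and 5. Within slide 4 the members' median was 0.24 and within slide 5 it was -0.11.

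Other genes of the X chromosome were measured beside the X-linked members. Of 787 other X-linked genes measured at 4 weeks, 437 rose and 170 fell, with a median of 0.83, against 1.19 over the 4 X-linked members. Markers of cell types moved at the same time. All 6 elongating spermatid markers fell, and their summed log2 level was 9.10 to 9.68 on WT arrays and 5.80 to 7.27 on Glis3KO2 arrays. All 5 round spermatid markers fell (5.34 to 5.54 against 2.54 to 3.99), as did all 6 pachytene spermatocyte markers (8.40 to 8.55 against 7.0 to 7.91). All 7 Sertoli markers rose, from 4.03 to 4.16 in WT to 5.64 to 6.24 in Glis3KO2. Of the peritubular and macrophage markers, 3 of 4 rose in each. Of 6 Leydig markers 1 rose and 2 fell (Cyp11a1 at -3.68 and Cyp17a1 at -2.85), with a summed level of 5.02 to 5.37 in WT and 3.32 to 5.0 in Glis3KO2. Of 4 markers of all germ cells 3 fell (7.28 to 7.31 against 5.24 to 6.38). Of the 4 markers of undifferentiated spermatogonia that passed the filter, 2 rose (Etv5 at 0.56 and Lin28a at 0.48) and 1 fell (Gfra1 at -2.26). The part of these cell types in the differences of the ribosomal genes was not tested.

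Other parts of the ribosome pathway were measured beside the members at 4 weeks. Rack1, a scaffold on the small subunit, and Rpsa, a small subunit protein outside the name pattern, rose by 0.57 and 0.45. Rpl34, which is in none of the lists, differed by -0.00 at 4 weeks and 0.38 at 1 week. Between the ages it differed by -0.66 in WT and -1.04 in Glis3KO2. Of 75 proteins of the mitochondrial ribosome 16 rose and 30 fell, with a median of -0.19, Mrpl1 (-1.81) and Mrps36 (-1.37) among those that fell and Mrps6 (0.92) among those that rose. Of 40 factors that build ribosomes 15 rose and 11 fell. Ubtf, which activates transcription of ribosomal RNA genes, rose by 1.92 and Nop56 of the box C/D particles by 1.23, while Wdr12, which acts in large subunit processing, fell by 1.72. Of 25 translation factors 2 rose (Eif4a1 at 1.30 and Eif1ax at 0.80) and 16 fell, among them the termination factor Etf1 (-1.07). Of 17 other mRNAs that begin with a pyrimidine tract like the ribosomal genes, 3 rose (Vim at 2.13, Hnrnpa1 at 1.03 and Tpt1 at 0.70) and 7 fell, among them Btf3 (-0.83). Of 17 genes listed for the mTOR and S6 kinase pathway, which controls ribosome production, 14 rose and 2 fell. Myc was at 2.92, Rps6ka2 at 2.12, Eif4ebp1 at 1.75, Larp1 at -1.17 and Mtor at -0.92. This list was drawn broadly, with Myc, Mycn and Rps6ka1 to Rps6ka3 in it. Its counts are of RNA, and the activity of the pathway was not measured. The shares called were 61.3%, 65%, 72%, 58.8% and 94.1% in these 5 lists, against 69.2% of all genes.

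Between 1 and 4 weeks nearly all members fell in WT. 74 of 81 fell and 2 rose, which is 93.8%, where 81.0% of all 23683 genes tested were called, 49.7% lower and 31.3% higher. The members' median was -0.71 and that of all genes -0.51. On the array medians of the members, WT read 6.28 to 6.57 at 1 week and 5.33 to 5.42 at 4 weeks. For 77 members all 4-week arrays lay below all 1-week arrays and for 2 above, against 49.0% and 31.8% of all genes. Age and slide cannot be told apart, because the 1-week arrays lie on slides 1 to 3 and the 4-week arrays on slides 4 and 5. Relative to all genes the members' median was -0.21 with the main scaling, -0.49 with quantile normalization and -0.11 without 1-week WT replicate 4. The count of members that fell moved as well. With median scaling it was 55, where 79.6% of all genes were called. With 1 fit of all arrays it was 60, where 77.9% of all genes were called.

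Among the members, Rps4x and Rpl39 fell most. Rps4x read 6.60, 6.90, 6.75 and 6.86 at 1 week in WT, and its 4-week arrays at 4.21 to 4.42 were 5.50-fold lower (log2 difference -2.46, SE 0.10, limma adjusted p = 8.6e-07). Rpl39 read 5.33, 5.60, 5.56 and 5.71 at 1 week and was 5.49-fold lower at 4 weeks (-2.46, SE 0.12, limma adjusted p = 1.4e-06). Rpl10 read 5.28, 5.45, 5.47 and 5.60 and was 3.43-fold lower (-1.78, SE 0.10, limma adjusted p = 3.35e-06). The 4 X-linked members had a median of -2.12, beside -0.71 for the 71 autosomal proteins of the subunits and stalk and -1.42 for 879 other X-linked genes, of which 595 fell and 191 rose. Rpl36a was again split, at -0.38 for its brightest probe and -2.57 and -2.60 for the others. The largest falls among autosomal members were those of Rpl14 (-2.13), Rps3a (-1.82) and Rps19 (-1.73). The stalk genes fell by 0.56 (Rplp0), 0.59 (Rplp1) and 0.92 (Rplp2).

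Of the autosomal relatives, Rpl39l and Rpl36al rose. Rpl39l read 3.18, 2.93, 2.77 and 3.41 at 1 week and was 8.26-fold higher in 4-week WT, at 6.06 to 6.17 (log2 difference 3.05, SE 0.16, limma adjusted p = 2.12e-06). Rpl36al rose by 0.57 (SE 0.09, limma adjusted p = 0.000629), from 3.64 to 3.88 at 1 week to 4.28 to 4.35 at 4 weeks, and with quantile normalization its difference was 0.07 and not called. Rps19bp1, the protein that binds Rps19, rose by 0.61 (SE 0.11, limma adjusted p = 0.00187). Rps4l (0.19), Rpl22l1 (0.19) and Rps27l (0.07) did not pass the test. With quantile normalization each passed it as lower, at -0.35, -0.39 and -0.48 (limma adjusted p = 0.00426, 0.00392 and 0.00062). The other Rpl22l1 probe, for which the files give another accession at the same locus, read -4.58 to -4.18 at 1 week and 0.24 to 0.42 at 4 weeks in WT, a difference of 4.74.

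Within arrays, paralog minus parent was higher at 4 weeks than at 1 week in WT for all 7 pairs. The difference was 5.50 (SE 0.16) for Rpl39l and Rpl39, 2.65 (SE 0.12) for Rps4l and Rps4x, 1.31 (SE 0.08) for Rpl22l1 and Rpl22, 0.95 (SE 0.01) for Rpl36al and Rpl36a, and 0.42 (SE 0.07) for Rps27l and Rps27. For Rpl7l1 and Rpl7 it was 0.08 (SE 0.03). These 6 pairs had an exact two-sided permutation p of 0.0286, the smallest possible, and 0.0333 adjusted over the 7 pairs. For Rpl3l and Rpl3 it was 0.81 (SE 0.21, exact permutation p = 0.0571, adjusted 0.0571). With quantile normalization the value for Rps27l and Rps27 turned to -0.18. Here too other probes differed, at -2.57 and -2.60 for Rpl36a, not -0.38, and -2.38 for Rpl22, not -1.12. They gave 4.74 for Rpl22l1, not 0.19, and -1.18 for Rps4x, not -2.46.

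**Figure D3:**
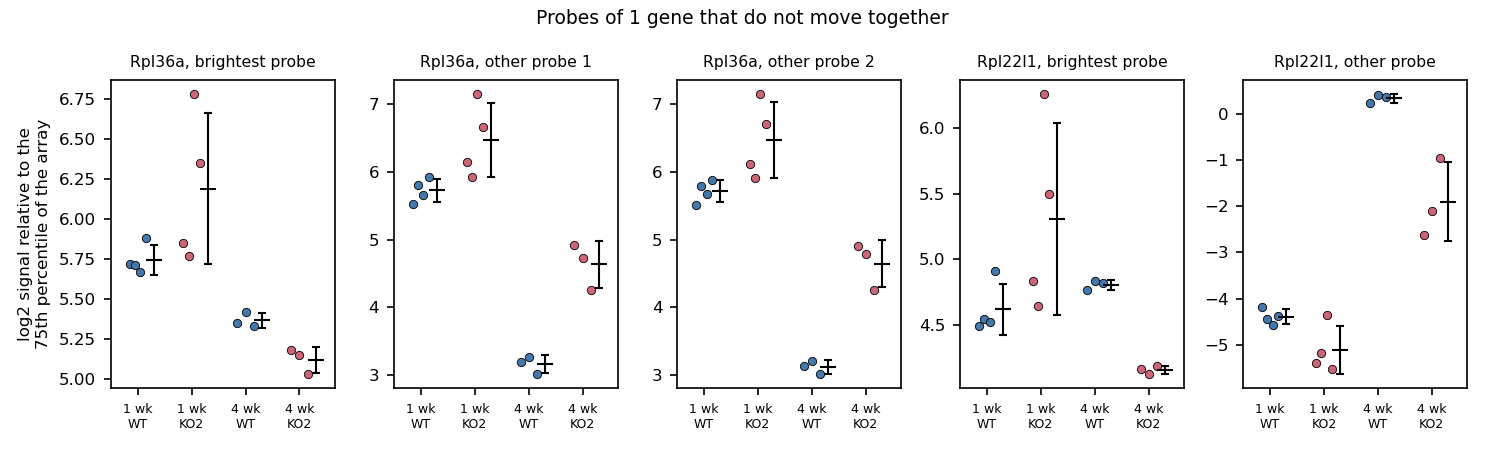
Log2 signal relative to the 75th percentile of the array for the 3 probes of Rpl36a and the 2 probes of Rpl22l1; points are arrays (blue WT, red Glis3KO2), bars are mean and SD, and each panel has its own scale. From 1 to 4 weeks in WT the brightest Rpl36a probe changed by -0.38 and its other probes by -2.57 and -2.60, and the Rpl22l1 probes by 0.19 and 4.74.

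In Glis3KO2 the members fell between the ages as well. 75 of 81 fell and 0 rose, which is 92.6%, where 52.6% of the 21730 genes tested were called, 28.8% lower and 23.8% higher. At an unadjusted p under 0.05 in limma, 76 members were lower and 0 higher, against 32.4% and 26.2% of all genes. For 77 members all 4-week arrays lay below all 1-week arrays, against 32.6% of all genes. The members' median was -1.04 and that of all genes -0.14. 71 members fell in both genotypes, which are 71 of the 74 that fell in WT and of the 75 that fell in Glis3KO2. With 74 and 75 of 81 lower, most of these must be shared, and the share of all genes that fell in both was not counted. The largest falls were those of Rpl14 (-2.29), Rpl39 (-1.84), Rps26 (-1.71), Rpl31 (-1.61), Rpl29 (-1.51) and Rps15 (-1.46). Rps4x fell by 1.23 and Rpl10 by 1.34, and the 4 X-linked members had a median of -1.28 beside -1.04 for the 71 autosomal ones. Rpl39l rose by 2.19 (SE 0.62, limma adjusted p = 0.0169), a call lost without 4-week Glis3KO2 replicate 3 (1.79), and Rpl36al, Rps27l, Rpl7l1, Rps12, Rps19bp1 and Rpl3l were not called. With quantile normalization 43 members fell, with a median of -0.49.

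**Figure D4:**
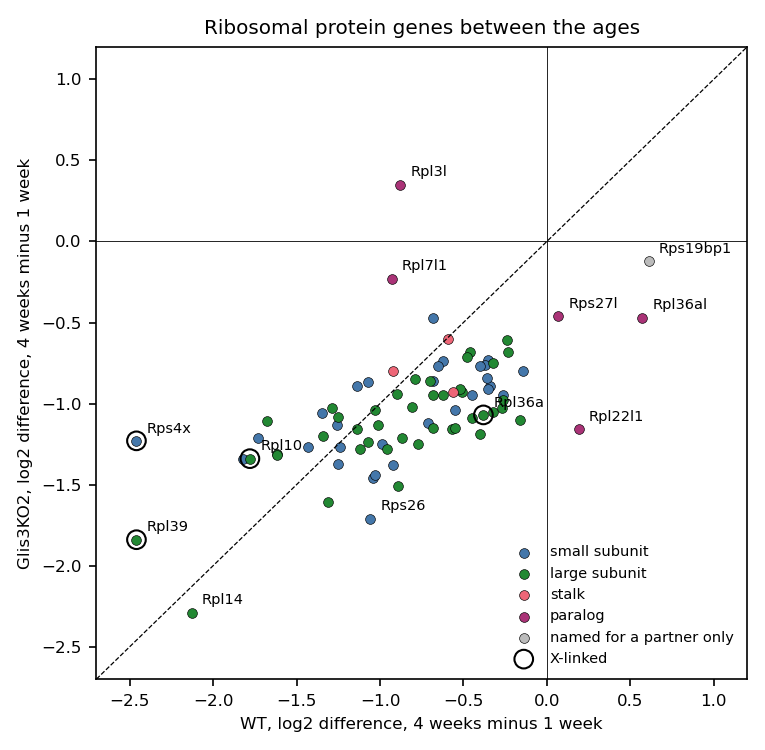
Log2 difference, 4 weeks minus 1 week, in WT (horizontal) and in Glis3KO2 (vertical) for the 81 members; colours give the role, circles mark the X-linked members and the dashed line marks equal change. Rps4x lay at -2.46 in WT and -1.23 in Glis3KO2, and the medians over the members were -0.71 and -1.04.

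At 1 week nearly no member was called. 1 of 81 members rose in Glis3KO2 and 0 fell, which is 1.23%, where 10.0% of the 22678 genes tested were called, 3.90% higher and 6.14% lower. The share of all genes called ran from 1.74% without WT replicate 1 to 15.8% without WT replicate 4, and was 2.21% with slide as a block. At an unadjusted p under 0.05 in limma, 19 members were higher and 0 lower, against 16.9% and 19.2% of all genes. The member called was Rpl14, a protein of the large subunit. It read 0.53, 0.74, 0.73 and 0.95 in WT and 1.53, 1.27, 2.25 and 1.94 in Glis3KO2, with no overlap. It was 2.01-fold higher (log2 difference 1.01, SE 0.22, limma adjusted p = 0.036). Its only probe holds a match to the telomeric repeat CCCTAA, with a score of 10 where 7 or more counts as a match, and the part of that repeat was not tested. Rpl14 lost its call without WT replicate 1, 2 or 3 (0.94, 1.01 and 1.01), without Glis3KO2 replicate 1 or 4 (1.08 and 0.95), and with slide as a block (0.93). Within slide 1 it was 1.26 and within slide 2 it was 0.42. Without WT replicate 4 or Glis3KO2 replicate 2, 2 members were called.

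Yet 80 of 81 members had a difference above 0 at 1 week, with a median of 0.36 where that of all genes was -0.07 and that of the brightest 25% of genes 0.22. The array medians of the members were 6.37, 6.39, 6.28 and 6.57 in WT and 6.60, 6.52, 7.30 and 6.94 in Glis3KO2. Relative to the mean of WT, the members shifted by a median of 0.84 on Glis3KO2 replicate 3 and 0.50 on replicate 4, and by 0.10 and 0.04 on replicates 1 and 2. Replicate 4 is alone on slide 3, and its scan day differs from that of the other 1-week arrays, so its value cannot be told apart from its slide. WT replicate 4 lay at 0.15, above both of the latter. Within slide 1 the median was 0.54 and within slide 2 it was -0.02, and without replicate 3 it was 0.21. With quantile normalization the median was 0.01, with 45 of 81 above 0. Scaling to the median moved all genes from -0.07 to 0.19 and the members to 0.62, so that the members lay 0.43 above all genes with either scaling. With it 2886 genes were called higher and 1013 lower, in place of 885 and 1392. For 10 members all Glis3KO2 arrays lay above all WT arrays and for 0 below, against 15.3% and 12.0% of all genes.

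**Figure D5:**
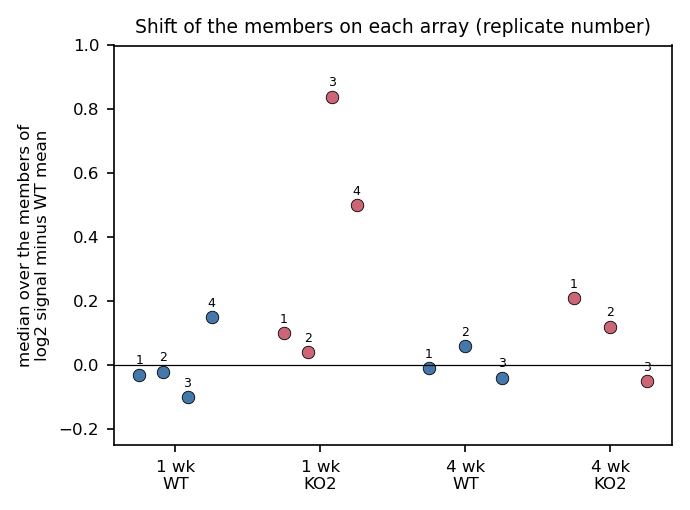
Median over the 81 members of the log2 signal minus the mean of WT at the same age, for each array (numbered by replicate; blue WT, red Glis3KO2). At 1 week Glis3KO2 replicates 3 and 4 lay at 0.84 and 0.50, and all other arrays lay between -0.10 and 0.21.

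None of the X-linked members and paralogs was called at 1 week. Rps4x read 7.07, 6.90, 7.58 and 7.43 in Glis3KO2, at a log2 difference of 0.47 (SE 0.17, limma adjusted p = 0.096). Rpl39 read 6.00, 5.83, 7.14 and 6.54, at 0.83 (SE 0.28, limma adjusted p = 0.0796). Rpl39l read 1.79, 2.14, 3.60 and 0.68 in Glis3KO2, a range wider than the distance between the groups, at -1.02 (SE 0.54, limma adjusted p = 0.202). Without Glis3KO2 replicate 3, Rpl39l differed by -1.54 and was called, and without replicate 4 by -0.56. With slide as a block it differed by -0.58, within slide 1 by -0.28 and within slide 2 by -1.03. Within arrays, paralog minus parent was lower in Glis3KO2 by 1.85 (SE 0.55) for Rpl39l and Rpl39, by 1.31 (SE 0.61) for Rpl3l and Rpl3, by 0.69 (SE 0.14) for Rps4l and Rps4x and by 0.21 (SE 0.07) for Rps27l and Rps27. Each of these had an exact two-sided permutation p of 0.0286, the smallest possible, and 0.05 adjusted over the 7 pairs, which is not under the threshold. The other 3 pairs overlapped. At this age all 4 markers of undifferentiated spermatogonia that passed the filter fell, with a summed log2 level over 5 markers of 0.22 to 0.72 in WT and -2.74 to -1.48 in Glis3KO2, and Ret was never above background in Glis3KO2. Of 7 Sertoli markers 3 rose, from 6.28 to 6.49 in WT to 6.87 to 7.48. Of 6 Leydig markers 3 rose (4.78 to 5.0 against 5.33 to 5.61), as did 2 of 4 macrophage markers (2.99 to 3.72 against 3.87 to 4.54). Of 6 pachytene markers 1 rose and 2 fell (1.05 to 1.43 against 0.53 to 1.05), and of 4 markers of all germ cells 1 fell (4.90 to 5.48 against 2.55 to 4.69). The part of these cells was not tested.

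The other lists of the pathway had few calls at 1 week, where 3.90% of all genes were called higher and 6.14% lower. Of 40 factors that build ribosomes 6 fell and 0 rose, among them Heatr1 (-1.19), Wdr43 (-1.08) and Ddx18 (-0.52). Of 75 mitochondrial ribosomal proteins 1 rose (Mrps34, 0.65), and of 17 genes listed for the mTOR pathway 1 fell (Mtor, -0.78). None of the 25 translation factors, the 17 other pyrimidine-tract mRNAs and the 4 listed ribosome components outside the name pattern was called by limma. Of these, 5, 7 and 0 had an unadjusted p under 0.05 in limma, where 16.9% of all genes were higher and 19.2% lower at that threshold. Between the ages in WT, 26 of 40 ribosome building factors and 15 of 17 genes listed for the mTOR pathway fell. Of 25 translation factors 13 rose and 5 fell, where 49.7% of all genes fell and 31.3% rose. The mitochondrial ribosome, with 30 of 75 genes higher and 31 lower, had a median of -0.01 where the members had -0.71.

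The genotype difference itself differed between the ages for 13 of 81 members, 2 higher and 11 lower at 4 weeks than at 1 week, which is 16%, where 51.0% of the 23763 genes tested were called, 29.3% higher and 21.6% lower. Rps4x (1.23, SE 0.26, limma adjusted p = 0.00194) and Rpl7l1 (0.70, SE 0.23, limma adjusted p = 0.0234) were higher. Rps19bp1, among those lower, lost its call in 10 of 23 alternatives. The lowest were Rpl22l1 (-1.35), Rpl36al (-1.04), Rpl36 (-0.95), Rpl24 (-0.79), Rpl37 (-0.76) and Rps19bp1 (-0.73). Rpl39 (0.62) and Rpl10 (0.44) did not pass this test, so their larger 4-week differences are not shown to differ from those at 1 week. With quantile normalization 42 members were called higher and 0 lower, and the members' median turned from -0.31 to 0.43, while Rps4x and Rpl22l1 kept their sign, Rpl22l1 without its call. With the mean of its probes Rps4x was at 0.81 and not called. Rpl7l1 lost its call in 4 of 23 alternatives, over which its value ran from 0.36 to 0.88. Among these 4 were the fits without 4-week WT replicate 3 (0.67) or 4-week Glis3KO2 replicate 2 (0.54). Without 1-week Glis3KO2 replicate 3, 7 members were higher, and without 4-week Glis3KO2 replicate 3, 4. The count of lower members was 17 without 1-week Glis3KO2 replicate 2. It was 7 without 1-week WT replicate 1 or 2, 1-week Glis3KO2 replicate 4 or 4-week Glis3KO2 replicate 2, and 6 without 1-week WT replicate 3 or any of the 4-week WT replicates.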

How the data were processed

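Total RNA of 14 testis samples was labelled with Cy3, per the labels, and read with Agilent Feature Extraction 9.5, per the submitters' processing notes. The deposited scanner files hold intensity values per spot, with the background already subtracted, and spot flags as other columns. For 45018 of 45018 spots on every array, the value in the series table deposited by the authors equals this intensity, which shows no step between arrays. The log2 of this intensity was taken, leaving out non-uniform spots, repeated spots of a probe were averaged, and each array's 75th percentile was subtracted. The brightest probe stood for each gene name, and a gene was tested when 3 or more arrays of a group were well above background. Members carry the names of the array. Of the 41174 probes, 22951 were matched to RefSeq (GRCm38.p6) names by accession, 6659 by symbol and 3109 by synonym, and the other 8455 stayed under their array name. Differences were tested in R 4.3.3 with limma 3.58.1, by linear models with empirical Bayes, over all genes and separately for each comparison, with Benjamini-Hochberg adjustment at 0.05; the difference between ages used all 14 arrays. Differences within arrays were compared by exact permutation. Python 3.11.15 served for tables and plots. The procedure was tested on simulated data with 100 genes changed by 1 and 100 by 2 on the log2 scale. These lay among 23595 genes, or 21168 at 4 weeks. Of changes of 1 it found 37% at 1 week, 34% at 4 weeks and 48% between the ages in WT. Of changes of 2 it found 70%, 69% and 72%, in the same order. Its recovery where most genes are called, as at 4 weeks and between the ages in WT, was not tested.

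Genes were named if they were X-linked members, stalk genes, paralogs or their parents, up to 6 called members per direction and comparison with the largest difference and no overlap, or up to 3 called genes per direction with the smallest p in other pathway lists. Further called members are named as examples. The members and lists were chosen with earlier results of these data known. Alternatives were median scaling, quantile normalization, normexp with an offset of 50, other filters, averaging the probes of a gene, fitting all arrays together, a block for replicate or slide, an intensity trend, and leaving out saturated probes or each array. Leaving out probes that match the telomeric repeat was added after seeing the data. Some items are not reported here.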

Additional observations from a re-analysis of the deposited data

Results flagged for a closer look

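On 1-week WT replicate 4, Rpl22l1 read 4.91, away from 4.49 to 4.54 on the other 1-week WT arrays. On 1-week Glis3KO2 replicate 3, Rplp1 read 8.63, away from 8.08 to 8.15 on the others. These are 2 of 48 groups of arrays examined, and chance alone sets apart about 1 in 20 such groups.

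The genotype difference differed between the ages, by an interaction test in limma, in 14 genes. It was higher at 4 weeks for Rps4x (1.23) and Rpl7l1 (0.70). It was lower for Rpl22l1 (-1.35), Rpl36al (-1.04), Rpl36 (-0.95), Rpl24 (-0.79), Rpl37 (-0.76), Rps19bp1 (-0.73), Rpl26 (-0.72), Rps7 (-0.68), Rps13 (-0.66), Rps26 (-0.65), Rpl32 (-0.65) and Rps4l (-0.61), and none of these 12 was called lower with quantile normalization. Rps4l had another call in 14 of 23 alternatives, Rps19bp1 in 10 and Rpl7l1 in 4.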

How the results depend on the processing

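Most values kept their direction and call, and the cause of those that did not was not tested. Members higher at 1 week were 6 with median scaling, 3 with quantile normalization and 8 with 1 fit of all arrays. They were 2 with normexp, a filter on every array or an intensity trend. With no filter or slide as a block they were 0, and with 1 array left out 0 to 2. Leaving out telomeric repeat probes gave 0 as well, but it removes Rpl14, the only member called, so it cannot test that call. At 4 weeks quantile normalization gave 51 higher and 0 lower, 1 fit gave 4 lower, and leaving out 1 array gave 9 to 31 higher and 2 to 7 lower. Between the ages in WT quantile normalization gave 1 member higher, median scaling gave 55 lower and 1 fit gave 60 lower. In Glis3KO2 quantile normalization gave 43 lower, and the mean of all probes 1 higher. For the difference between ages, median scaling gave 1 higher and 25 lower, quantile normalization 42 and 0, the mean of probes 6 higher, and leaving out 1 array 1 to 7 higher and 6 to 17 lower. Median scaling moved the median of all genes from -0.51 to -0.37 between the ages in WT, and from -0.14 to -0.34 in Glis3KO2.

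The direction turned with the mean of all probes for Rpl36a at 4 weeks (0.92) and for Rpl22l1 between the ages in Glis3KO2 (1.04). With quantile normalization it turned for Rps27l at 4 weeks (0.41), between the ages in WT for Rpl22l1 (-0.39), Rps27l (-0.48), Rps4l (-0.35) and Rps27l minus Rps27 (-0.18), and in the difference between ages for Rpl22 (0.71), Rpl37 (0.06), Rpl7 (0.80), Rplp1 (0.51) and Rps4l (0.10).

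For the pairs, quantile normalization gave -0.66 for Rpl3l minus Rpl3 at 1 week, -1.21 at 4 weeks and 1.34 between the ages in WT, where normexp gave 0.85. At 4 weeks it gave 0.05 for Rps27l minus Rps27 and 0.31 for Rpl7l1 minus Rpl7, and normexp gave 0.05 for Rpl7l1 minus Rpl7 between the ages. With 1 array left out at 1 week the ranges were -2.11 to -1.34 for Rpl39l minus Rpl39, -1.60 to -0.74 for Rpl3l minus Rpl3, -0.25 to -0.16 for Rps27l minus Rps27 and 0.17 to 0.33 for Rpl22l1 minus Rpl22.

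Replicate numbers are shared between genotypes, but same-numbered samples did not deviate together at either age (correlations of -0.1755, -0.1444, -0.1678 and 0.1422 at 1 week and 0.1554, -0.3371 and 0.1098 at 4 weeks). With a replicate block 0 members and 1.72% of all genes were called at 1 week, and 13 rose and 2 fell at 4 weeks.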
